A study of Mus musculus with 16 samples.

Results

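The genes described here are 10 receptors and receptor adaptors of natural killer (NK) cells, chosen by symbol from a table of 18929 genes: Ncr1, Klrb1c, Klrk1, Klrd1, Klrc1, Klrc2, Klrg1, Klre1, Cd226 and Tyrobp. All 10 were in the table. They were measured in 16 B16F10 tumors, 4 in each of 4 groups, and the question was whether they followed Cd8a, the marker of CD8 T cells, or varied on their own. B16F10 is a melanoma line of C57BL/6 origin, and its cells were injected into the abdomen of female C57BL/6 mice aged 7 to 8 weeks. The mice then received intraperitoneal vehicle, the PD1 antibody (anti-PD1), α-ketoglutarate at 100 mg/kg (α-KG) or both (α-KG + anti-PD1) for 9 to 11 days. The design names corn oil and an IgG2a antibody among the control injections, and the sample labels do not say which group besides vehicle received them. RNA came from whole tumors, so each value mixes tumor cells with the leukocytes and blood of that piece of tissue.

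NK cells kill without a rearranged antigen receptor and weigh signals from activating against inhibitory receptors on their surface. Many of these receptors are C-type lectins encoded side by side in the NK gene complex, and some of them, such as NKG2D, CD94 with NKG2A, and KLRG1, are also carried by activated or memory CD8 T cells. Tyrobp encodes DAP12, an adaptor that gives signalling capacity to receptors that have none, and it is abundant in macrophages and neutrophils as well as in NK cells.

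Of the members, 7 are NK-complex or related lectins on chromosome 6 (mm10, the build in the submitters' processing notes), and Klre1, Klrd1, Klrk1, Klrc2 and Klrc1 lie within 101069 bp at chr6:129577905-129678973. Klrb1c lies at chr6:128778485-128789215 and Klrg1 at chr6:122270596-122282882. Ncr1 is at chr7:4337724-4345164 and Tyrobp at chr7:30413760-30417585, Cd226 lies on neither of these chromosomes, and all 10 are annotated as protein coding.

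The 250 bases before the RefSeq start site are shown for 4 receptors that differ in role, 1 of them outside the NK complex. They are from RefSeq (GRCm38.p6) and are written 5′ to 3′ on the strand of the gene, with the letters TGTGGT, a core recognized by RUNX factors, or their reverse complement ACCACA in capitals. The sequence of Ncr1 is chr7:4337465-4337714 on the plus strand, and those of Klrk1, chr6:129623865-129624114, Klrc1, chr6:129678974-129679223, and Klrc2, chr6:129660597-129660846, are on the minus strand.
Ncr1: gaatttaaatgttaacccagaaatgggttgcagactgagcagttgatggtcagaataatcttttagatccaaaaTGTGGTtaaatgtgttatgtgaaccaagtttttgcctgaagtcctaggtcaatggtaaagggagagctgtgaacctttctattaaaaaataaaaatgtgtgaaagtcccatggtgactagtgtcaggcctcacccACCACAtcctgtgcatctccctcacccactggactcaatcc
Klrk1: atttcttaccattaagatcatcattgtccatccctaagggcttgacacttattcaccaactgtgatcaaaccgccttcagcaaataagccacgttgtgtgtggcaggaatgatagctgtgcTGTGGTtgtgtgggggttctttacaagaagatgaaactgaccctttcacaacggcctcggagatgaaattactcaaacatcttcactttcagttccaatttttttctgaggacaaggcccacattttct
Klrc1: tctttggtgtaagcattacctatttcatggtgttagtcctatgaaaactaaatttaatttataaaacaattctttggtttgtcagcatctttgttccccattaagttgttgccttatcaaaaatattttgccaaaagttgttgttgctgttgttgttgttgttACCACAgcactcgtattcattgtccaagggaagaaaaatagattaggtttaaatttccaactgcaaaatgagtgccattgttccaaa
Klrc2: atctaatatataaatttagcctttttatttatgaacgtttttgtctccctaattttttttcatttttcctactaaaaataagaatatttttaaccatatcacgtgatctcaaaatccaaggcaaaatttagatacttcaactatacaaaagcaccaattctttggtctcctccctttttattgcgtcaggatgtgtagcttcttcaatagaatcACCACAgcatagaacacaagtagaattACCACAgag

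RefSeq promoter sequences were found for 6 of the 10 members (Ncr1, Klrb1c, Klrk1, Klrc1, Klrc2 and Klre1), and TGTGGT was present on either strand in 6 of 6, against 14.2% of 27025 mouse promoters of the same length. In Ncr1 a match began 176 and another 41 bases before the RefSeq start site, in Klrc2 36 and 9 bases, in Klrc1 87 and in Klrk1 129. By the annotation that gave the gene positions, Klrc2, Klrb1c and Klre1 each begin farther upstream. Both matches of Klrc2 and the whole windows of Klrb1c and Klre1 therefore lie inside the annotated genes. For Ncr1 the bases after the RefSeq start were not found in an annotated transcript. The T-box core AGGTGTGA (1.14% of promoters), its shorter form GGTGTG, which lies within it (16.2%), and the STAT core TTCNNNGAA (7.14%) were in 0 of 6. The letters TGTGGT are short and a match describes the sequence only. Klrc1 and Klrc2 also share stretches of transcript sequence, and a part of these letters in the levels was not tested. The remaining members, Klrd1, Klrg1, Cd226 and Tyrobp, have no entry in that table.

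The values are FPKM, fragments scaled by transcript length and by the size of the library, and the receptors were at the bottom of that range while Tyrobp was not. Averaged over 16 tumors, Klrd1 was the highest receptor at 3.82 FPKM, followed by Klrk1 at 2.44 and Klrc1 at 2.14, while Klrc2 was the lowest at 0.333 FPKM. Tyrobp averaged 113 FPKM. The test covered the 12850 genes that reached 0.5 FPKM in 4 tumors or more, 9 of the 10 members among them. Klrb1c reached 0.5 FPKM in 3 tumors only and was not tested, and Ncr1, Klrc2, Klrg1 and Cd226 passed with exactly 4 tumors each, 3 of them treated with α-KG + anti-PD1. A member that passed through the group where it was high had to differ between groups, so the counts below describe the members and do not test the list. The number of reads per tumor is unknown, and levels below 1 FPKM carry the most uncertainty. Klrc1 and Klrc2 share 40.3% and 30.1% of their 50-base stretches with each other or Klrc3, and Klrb1c shares 18.1% with Klrb1a, Klrb1b or Gm44511, so reads may have been divided between these genes.

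**Figure D1:**
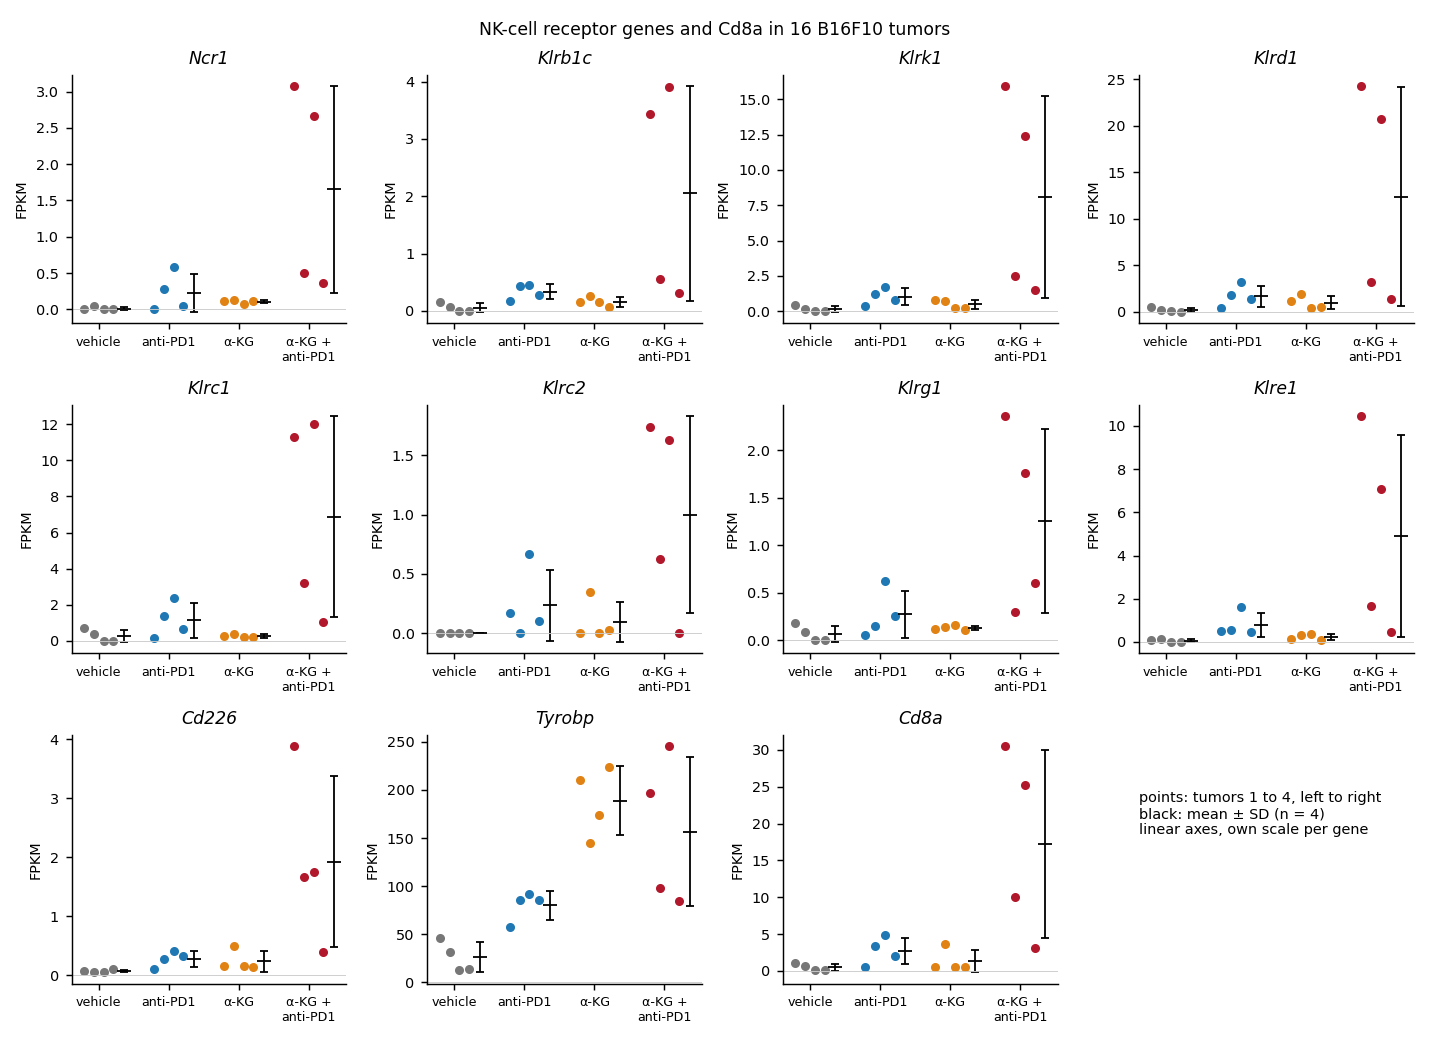
FPKM of the 10 members and Cd8a in each tumor by group, with the mean and SD (n = 4) in black, each gene on its own linear axis. For the receptors, α-KG + anti-PD1 tumors 1 and 3 stand above all others, while Tyrobp is also high in the 4 α-KG tumors, at 145 to 224 FPKM.

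The receptor that is most restricted to NK cells, Ncr1 (NKp46), was close to 0 in vehicle and α-KG tumors and in anti-PD1 tumors 1 and 4. In vehicle tumors 1 to 4 it was 0, 0.04, 0 and 0 FPKM, and in α-KG tumors 0.11, 0.13, 0.07 and 0.11. In anti-PD1 tumors it was 0, 0.28, 0.58 and 0.05 FPKM, and in α-KG + anti-PD1 tumors 3.08, 0.50, 2.67 and 0.36. The α-KG + anti-PD1 tumors were all above the vehicle and α-KG tumors but overlapped with anti-PD1. Klrb1c (NK1.1), the antigen by which NK cells of C57BL/6 mice are usually identified, gave 0.16, 0.07, 0 and 0 FPKM in vehicle and 3.43, 0.56, 3.90 and 0.31 in α-KG + anti-PD1 tumors, again without overlap. Its anti-PD1 values of 0.17, 0.44, 0.46 and 0.28 FPKM lay above vehicle too, and its α-KG values ran from 0.06 to 0.26.

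Klrk1 (NKG2D), the activating receptor for stress-induced ligands of the RAE-1 and H60 families, gave 0.41, 0.17, 0 and 0 FPKM in vehicle tumors. It gave 0.34, 1.20, 1.75 and 0.83 with anti-PD1, 0.80, 0.74, 0.26 and 0.21 with α-KG, and 15.95, 2.50, 12.4 and 1.53 FPKM with both. Every tumor of the combined treatment was above every vehicle and α-KG tumor, and tumor 4 lay below the highest anti-PD1 tumor. Klrd1 (CD94), the common partner of the NKG2 chains, was likewise highest in combination tumors 1 and 3, with 24.3, 3.24, 20.7 and 1.33 FPKM after α-KG + anti-PD1 against 0.47, 0.22, 0.08 and 0 in vehicle. In anti-PD1 tumors Klrd1 was 0.46, 1.76, 3.18 and 1.36 FPKM and in α-KG tumors 1.15, 1.87, 0.38 and 0.55, so both single treatments overlapped with vehicle and with the combination.

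Klrc1 (NKG2A) joins CD94 as an inhibitory receptor for the nonclassical MHC molecule Qa-1, and Klrc2 (NKG2C) joins it as an activating one. Klrc1 was 0.71, 0.38, 0 and 0 FPKM in vehicle tumors, 0.18, 1.39, 2.40 and 0.65 with anti-PD1 and 0.25, 0.40, 0.22 and 0.19 with α-KG, while the combined treatment gave 11.3, 3.19, 11.99 and 1.05. The last group did not overlap with vehicle or α-KG. Klrc2 was listed at 0 in 8 tumors, among them the 4 vehicle tumors and α-KG + anti-PD1 tumor 4, and its other values in the combined group were 1.74, 0.63 and 1.63 FPKM. It was 0.17, 0, 0.67 and 0.10 FPKM with anti-PD1 and 0, 0.35, 0 and 0.03 with α-KG. The groups of Klrc2 therefore overlapped, and no fold change is given against a group listed at 0.

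Klrg1, an inhibitory receptor for cadherins that marks mature NK cells and short-lived effector T cells, was 0.18, 0.09, 0 and 0 FPKM in vehicle and 2.36, 0.30, 1.76 and 0.60 in α-KG + anti-PD1 tumors. It stayed at 0.06 to 0.62 FPKM with anti-PD1 and at 0.11 to 0.16 with α-KG. Klre1, a lectin that pairs with KLRI1 or KLRI2, was 0.09, 0.14, 0 and 0 FPKM in vehicle, 0.52, 0.54, 1.61 and 0.48 in anti-PD1, and 10.46, 1.66, 7.06 and 0.46 in α-KG + anti-PD1 tumors. Anti-PD1 tumors were all above vehicle for Klre1, and α-KG tumors, at 0.09 to 0.37 FPKM, overlapped with it. Cd226 (DNAM-1), an activating receptor for the PVR and nectin-2 proteins, was the only receptor above 0 in all 16 tumors, with 0.08, 0.06, 0.05 and 0.10 FPKM in vehicle and 3.88, 1.67, 1.75 and 0.40 in α-KG + anti-PD1 tumors. In contrast to the other receptors, its values in combination tumors 2 and 3 were alike. Cd226 ran from 0.10 to 0.42 FPKM with anti-PD1 and from 0.14 to 0.50 with α-KG.

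Tyrobp had a different order of groups. It was 45.8, 31.5, 12.8 and 13.9 FPKM in vehicle tumors and 57.9, 85.2, 91.6 and 85.5 in anti-PD1 tumors. In α-KG tumors it was 211, 145, 174 and 224 FPKM, and in α-KG + anti-PD1 tumors 197, 98.4, 245 and 84.9. Each treated group was above vehicle without overlap, and the 4 α-KG tumors lay inside the range of the combination. Cd8a itself was 1.13, 0.68, 0.07 and 0.16 FPKM in vehicle tumors, 0.61, 3.40, 4.85 and 2.04 with anti-PD1 and 0.59, 3.63, 0.58 and 0.56 with α-KG, while the combined treatment gave 30.5, 10.04, 25.2 and 3.11. As with the receptors, combination tumors 1 and 3 were the highest of the 16.

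When α-KG + anti-PD1 was compared with vehicle, all 9 tested members were higher (limma on log2(FPKM + 1), Benjamini-Hochberg adjusted p under 0.05), where 34.9% of all genes tested were called higher. The median log2 difference of the tested members was 2.04, against 0.15 for all genes. Of all genes, 4479 were called higher and 1348 lower, a split that turned with the scaling to 2197 and 4803 when tumors were centred on their medians and to 6294 and 250 when they were rescaled to the same sum, while 8 and 9 members were called higher. The difference was 2.86 for Klrd1 (SE 0.59, adjusted p = 0.00177), 2.56 for Klrk1 (SE 0.47, adjusted p = 0.000831) and 2.30 for Klrc1 (SE 0.47, adjusted p = 0.00166). It was 2.04 for Klre1 (SE 0.46, adjusted p = 0.00264), 1.31 for Cd226 (SE 0.25, adjusted p = 0.00112), 1.22 for Ncr1 (SE 0.29, adjusted p = 0.00351) and 0.98 for Klrg1 (SE 0.23, adjusted p = 0.00379). These differences cannot be ranked between genes, because adding 1 before the logarithm shrinks the difference of a gene near or below 1 FPKM. Klrc2 was called with an adjusted p of 0.0110, and Tyrobp rose by 2.59 (SE 0.38, adjusted p = 0.000417). Without the filter on low values Klrb1c was higher as well, by 1.29 (SE 0.33, adjusted p = 0.00909), which made 10 of 10 against 25% of all genes. In 9 of the 10 members, all but Klrc2, the lowest combination tumor was above the highest vehicle tumor, a pattern that 28.2% of the genes tested had. Cd8a rose by 3.26 (SE 0.57, adjusted p = 0.000641). In whole tumors, more cells of a type and more RNA per cell cannot be told apart. Genes of red cells took 2.10% to 2.24% of the summed FPKM in α-KG + anti-PD1 tumors and 4.24% to 22.3% in the others, and the part of this difference in the result was not tested.

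Neither single treatment gave a called change in a receptor. With anti-PD1 alone 1 of 9 tested members was higher than vehicle, where 0.467% of all genes were, and it was Tyrobp with a log2 difference of 1.76 (SE 0.38, limma adjusted p = 0.0464). That call was lost without the filter on low values (adjusted p = 0.0961) and when any of 10 tumors was left out, those of vehicle tumors 1 and 2 and of the combined group excepted, with adjusted p of up to 0.194 (vehicle tumor 3). Anti-PD1 and vehicle tumors did not overlap for 3 members (Tyrobp, Klrb1c and Klre1), as for 5% of genes. The 8 tested receptors had differences from 0.24 for Klrg1 to 1.09 for Klrd1 (SE 0.59, adjusted p = 0.371), all above 0 and none called. With α-KG alone, 1 of 9 was higher, against 8.4% of all genes, and it was again Tyrobp, by 2.98 (SE 0.38, adjusted p = 5.31e-05). The receptors ran from 0.03 for Klrc1 (SE 0.47, adjusted p = 0.980) to 0.69 for Klrd1 (SE 0.59, adjusted p = 0.473). The 95% interval for Klrc1 was -0.98 to 1.03. Ncr1, Cd226 and Tyrobp had no overlap between α-KG and vehicle tumors, as had 10.1% of genes. The 4 vehicle tumors are common to the 3 comparisons.

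**Figure D2:**
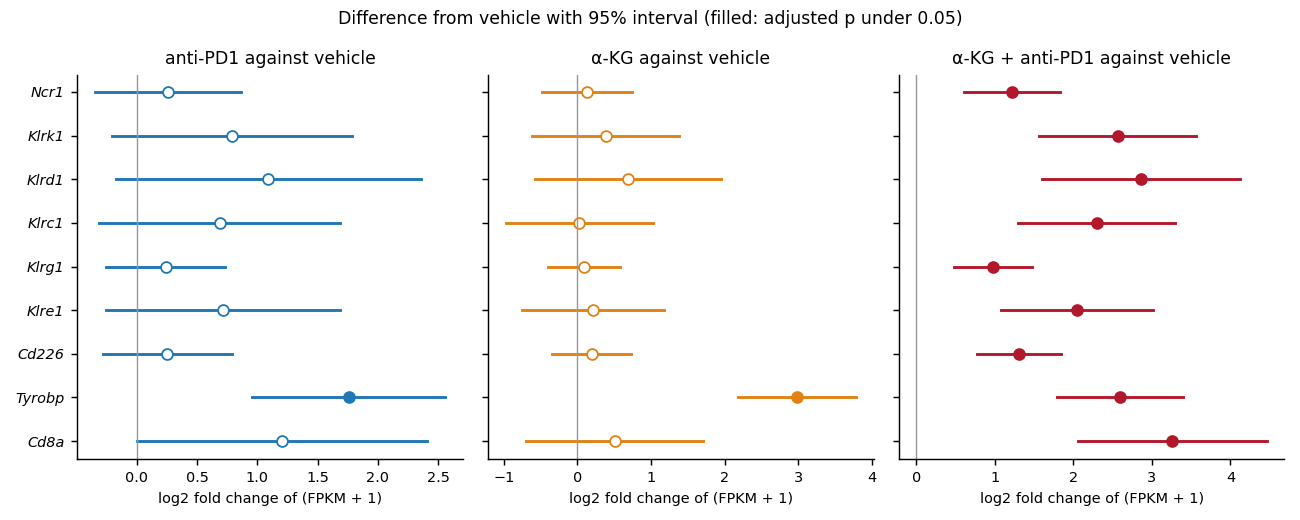
Difference from vehicle in log2(FPKM + 1), with its 95% interval, for 8 tested members and Cd8a in the 3 treated groups; filled points passed an adjusted p of 0.05 in limma. Each panel has its own axis; the receptors shown are filled in the right panel only, and Tyrobp is filled in each panel.

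The combination was then compared with each single treatment. Against α-KG, 8 of 9 tested members were higher, where 31.8% of all genes were, and the exception was Tyrobp with a difference of -0.39 (SE 0.38, limma adjusted p = 0.438). Klrc1 rose by 2.27 (SE 0.47, adjusted p = 0.00243), Klrk1 by 2.18 (SE 0.47, adjusted p = 0.00288) and Ncr1 by 1.09 (SE 0.29, adjusted p = 0.00837). In 6 of the 10 members the groups were apart, as in 29.7% of genes. The call of Klrc2 was lost without α-KG tumor 1, 3 or 4 or combination tumor 1 or 3. Against anti-PD1, 5 of 9 were higher (14.2% of all genes): Cd226 by 1.06 (adjusted p = 0.0184), Klrk1 by 1.77 (adjusted p = 0.0256), Klrc1 by 1.61 (adjusted p = 0.0357), Ncr1 by 0.96 (adjusted p = 0.0368) and Klrg1 by 0.74 (adjusted p = 0.0435). The groups were apart for 0 of the 10 members (13.6% of genes), since in each of them combination tumor 4 lay below the highest anti-PD1 tumor. The count is also unstable: it was 0 when only these groups were fitted, 0 without α-KG + anti-PD1 tumor 3, 1 without tumor 1 and 8 without tumor 4, and it was 0 without anti-PD1 tumor 1 or tumor 4. The call of Klrg1 was lost when any of 12 tumors was left out, vehicle tumors 2 to 4 and the 4 α-KG tumors among them. The call of Cd226 was lost without anti-PD1 tumor 1 or 4 or combination tumor 3, and those of Klrk1, Klrc1 and Ncr1 without these or combination tumor 1. The split of all genes turned with the scaling here too, from 1819 higher and 168 lower to 802 and 1968 when centred against anti-PD1, and from 4086 and 832 to 1758 and 3127 against α-KG.

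A test of whether anti-PD1 had a different effect with α-KG than without it singled out Tyrobp. Its interaction was -2.15 (SE 0.53, limma adjusted p = 0.0211), a direction called for 3.13% of genes. All 8 neutrophil markers and 3 of 12 macrophage and monocyte markers were lower in the same test, and their part in the value of Tyrobp was not tested. The estimates of the 8 tested receptors were all above 0, and leaving out Klrc2 they ran from 0.65 for Klrg1 to 1.58 for Klrc1. None passed, with adjusted p of 0.121 for Cd226 and 0.127 for Klrc1. Without α-KG + anti-PD1 tumor 4, 5 members were called: Tyrobp, again below 0, and 4 receptors above 0. These were Cd226 at 1.17 (adjusted p = 0.0115), Klrc1 at 2.11 (adjusted p = 0.0216), Klre1 at 1.64 (adjusted p = 0.0432) and Klrk1 at 1.85 (adjusted p = 0.0465), by limma. Whether these receptors are called thus depends on that tumor, and the share of all genes in that fit is not given here.

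Cd8a and the receptors moved together across tumors. Over 16 tumors, Pearson's r with Cd8a on the log2 scale was 0.967 for Klrc1, 0.964 for Klrd1, 0.959 for Klrk1, 0.936 for Cd226 and 0.931 for Klre1, each with a permutation p of 1e-05, the smallest that 100000 permutations can give (adjusted p = 0.000207 over 12849 genes). It was 0.918 for Ncr1, 0.915 for Klrc2 and 0.895 for Klrg1, and Spearman's rho ran from 0.729 for Klrc2 to 0.946 for Klrc1. Ncr1, Klrc2, Klrg1 and Cd226 had reached the filter on low values in 4 tumors each, 3 of them of the combination, where Cd8a was highest. Their r over 16 tumors was thus partly fixed by the filter and does not test whether they follow Cd8a. All 8 tested receptors passed, as did 35.8% of all genes, whose median r was 0.348. Tyrobp did not, at 0.538 (permutation p = 0.0316, adjusted p = 0.0659) with a rho of 0.415, but it passed with a pseudocount of 0.1 (r = 0.611, adjusted p = 0.0302 by permutation), when rescaled to the same sum (adjusted p = 0.0368), and without α-KG tumor 1, 3 or 4. Leaving out the tumors farthest from the median of Cd8a, α-KG + anti-PD1 tumors 1 and 3, left r at 0.934 for Klrk1 and Klrd1, 0.924 for Klrc1, 0.853 for Ncr1 and 0.707 for Klrg1, and at 0.378 for Tyrobp.

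**Figure D3:**
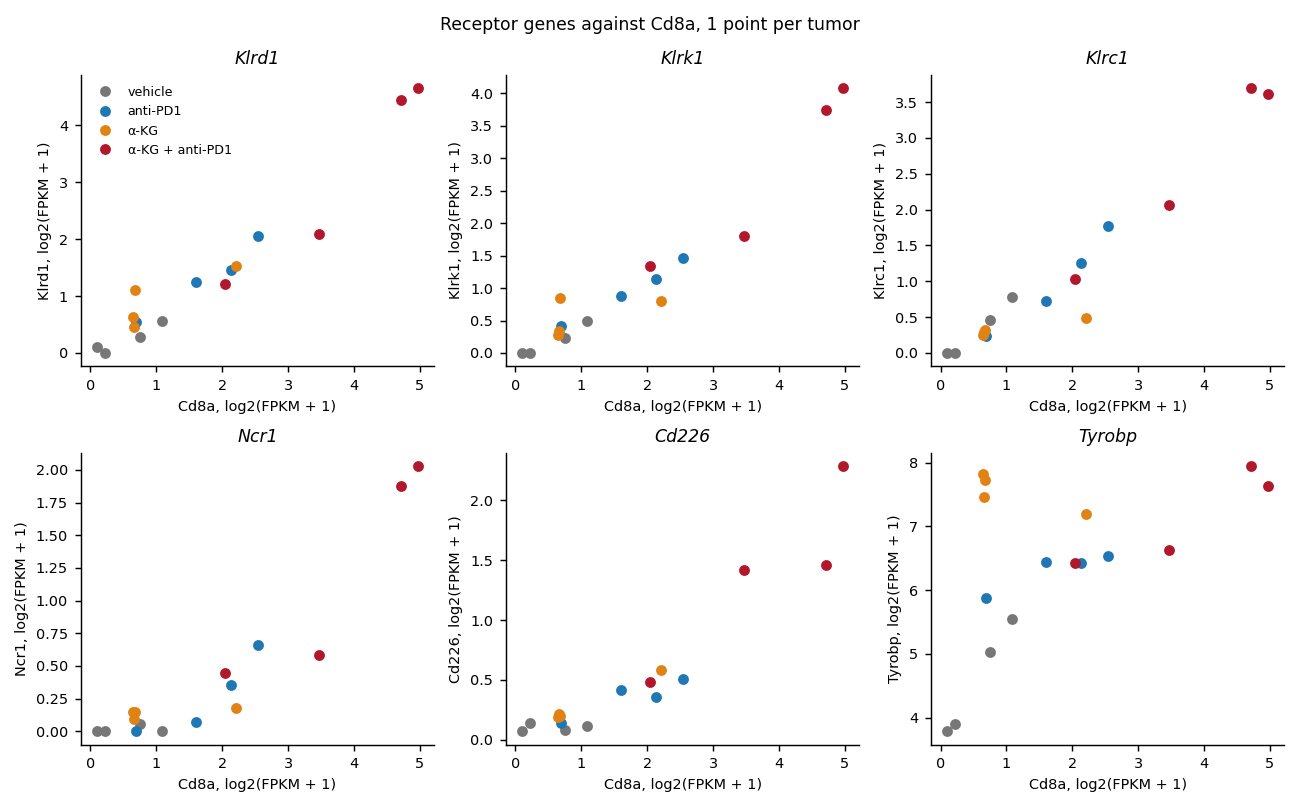
Level of 6 members against that of Cd8a, both as log2(FPKM + 1), with 1 point per tumor colored by group. Klrd1, Klrk1 and Klrc1 rise with Cd8a along a band over the groups (r = 0.964, 0.959 and 0.967). In α-KG tumor 2, with Cd8a at 3.63 FPKM, Klrk1 (0.74) and Klrc1 (0.40) lie low in it. The α-KG tumors of Tyrobp lie above the others at low Cd8a.

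Part of such a correlation is the difference between the groups, so it was computed again on deviations from the group means, with permutation within groups. Of the 9 tested members, 6 passed, where 6.54% of all genes did with a median r of 0.152: Klrc1 at 0.915 (adjusted p = 0.00330), Klrd1 at 0.914 (adjusted p = 0.00347), Klrk1 at 0.868 (adjusted p = 0.00347), Cd226 at 0.829 (adjusted p = 0.0152), Klre1 at 0.810 (adjusted p = 0.0421) and Ncr1 at 0.799 (adjusted p = 0.0354). Klrc2 (0.840, adjusted p = 0.0700), Klrg1 (0.718, adjusted p = 0.234) and Tyrobp (0.615, adjusted p = 0.140) did not, each by permutation within groups. By the same permutation test Ptprc, a gene of all leukocytes, passed at 0.804 (adjusted p = 0.0252). Csf1r, of monocytes and macrophages, passed at 0.704 (adjusted p = 0.0111), so following Cd8a within groups was not particular to the receptors. With Ptprc in place of Cd8a, r was higher for Klrg1 (0.762) and lower for the other tested receptors (Ncr1 0.768). Of the members, only Klrk1, Klrd1 and Klrc1 passed without α-KG + anti-PD1 tumors 1 and 3 (9.15% of genes), at 0.843, 0.924 and 0.865. Cd226 was at 0.796 in that setting (adjusted p = 0.0603 by permutation), close to its 0.829 within groups with no tumor left out. Klre1 was at 0.675, Ncr1 at 0.660 and Klrg1 at 0.365. The call of Klre1 was lost when any of 12 tumors was left out (all but anti-PD1 tumors 1 and 2 and α-KG tumors 2 and 3), that of Ncr1 without anti-PD1 tumor 1 or 3, α-KG tumor 2 or combination tumor 1 or 3, and that of Cd226 without anti-PD1 tumor 1 or 3 or combination tumor 3 or 4. In the linear fit with group means and Cd8a together, the slope on Cd8a was called for 8 of 9 members (8% of all genes), from 0.28 for Klrg1 (SE 0.08, limma adjusted p = 0.0321) to 0.96 log2 units per log2 unit of Cd8a for Klrd1 (SE 0.11, adjusted p = 6.37e-05). For Tyrobp it was 0.41 (SE 0.14, adjusted p = 0.0759). Without α-KG + anti-PD1 tumor 4 the slope was called for 3 members, and that of Klrg1 was not called without anti-PD1 tumor 1 or 3 or combination tumor 1, 3 or 4.

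**Figure D4:**
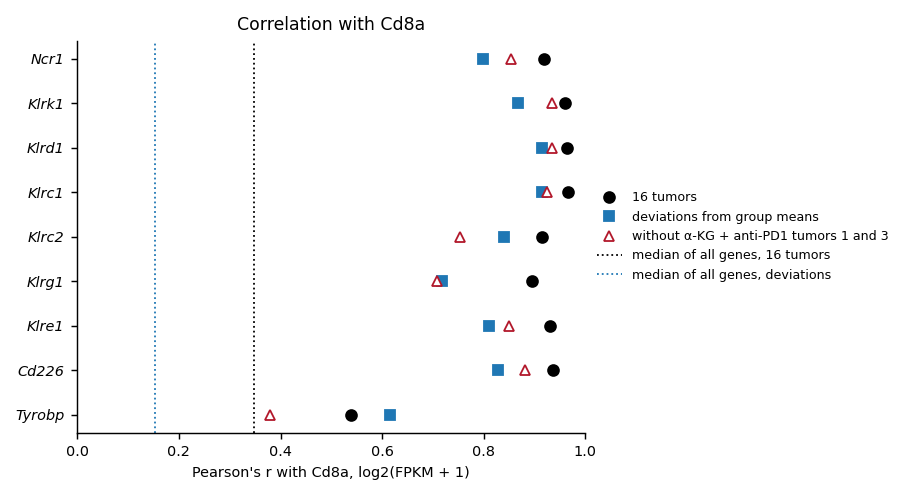
Pearson's r of each tested member with Cd8a over 16 tumors (circles), on deviations from group means (squares) and without α-KG + anti-PD1 tumors 1 and 3 (triangles); dotted lines are the medians of all genes, 0.348 and 0.152. The receptors are right of both lines by all 3 measures, and Tyrobp is left of the receptors over 16 tumors.

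With Cd8a as a covariate, no member differed between α-KG + anti-PD1 and vehicle in limma, and neither did any other gene at an adjusted p of 0.05 (0% of 12849), although 1055 genes had an unadjusted p under 0.05. Cd8a was 3.11 to 30.5 FPKM in the combination tumors and 0.07 to 1.13 in vehicle tumors. The ranges do not meet, so this contrast extends the slope beyond shared levels and cannot decide whether a group difference is left. The estimates that remained for the receptors ran from -0.27 for Klrd1 (95% interval -1.22 to 0.69) to 0.23 for Klrk1 (-0.69 to 1.15), leaving out Klrc2, which was listed at 0 in all vehicle tumors. Intervals of this width leave room for a difference in either direction, so they do not show that the receptors changed exactly as Cd8a did. For anti-PD1 against vehicle 0 members and 0% of genes were called at a given Cd8a, with 1198 genes under an unadjusted p of 0.05. For α-KG against vehicle, 1 member was called and 8.86% of genes were higher. That member was Tyrobp, which at a given Cd8a was 2.77 higher (SE 0.31, 95% interval 2.12 to 3.43, adjusted p = 1.29e-05). The receptors lay between -0.36 for Klrc1 and 0.20 for Klrd1 in that fit.

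The rise of each member was also set against that of Cd8a by taking the difference of their log2(FPKM + 1) values in each tumor. In α-KG tumors Tyrobp exceeded Cd8a by 6.50 on average and in vehicle by 4.03, so that the gap widened by 2.48 (limma adjusted p = 0.0238, called higher in 1% of genes), with an exact permutation p of 0.0286, the smallest that 4 against 4 allows. The limma call was lost when vehicle tumor 2, 3 or 4 or α-KG tumor 1, 3 or 4 was left out. In α-KG + anti-PD1 tumors each of the receptors, Klrd1 included, rose less than Cd8a on this scale. The difference from Cd8a changed from vehicle by -0.70 for Klrk1, -0.96 for Klrc1 and -1.22 for Klre1, and for these and the other receptors except Klrd1 the exact permutation p was 0.0286. For Klrd1 it changed by -0.40 (exact permutation p = 0.229) and for Tyrobp by -0.67 (exact permutation p = 0.171). In the limma fit the fall was called for Ncr1, Klrc2, Klrg1 and Cd226 and for 97.4% of all genes. Nothing about the members can therefore be read from that count or from the exact p-values, which were not computed for all genes. Adding 1 before the logarithm shrinks the change of low genes. The median ratio of plain FPKM to Cd8a went the other way, rising from vehicle to α-KG + anti-PD1 for all receptors but Cd226. It rose from 0.125 to 0.492 for Klrk1 and from 0.040 to 0.223 for Klre1, and fell from 0.357 to 0.128 for Cd226. These ratios overlapped between the groups, and those of vehicle rest on values near 0.

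Some tumors departed from the common band. In α-KG tumor 2, Cd8a was 3.63 FPKM against 0.56 to 0.59 in the other α-KG tumors, and the 6 T cell markers summed to 25.2 FPKM against 4.34 to 5.95. Of the 9 receptors, 6 were highest of their group in the same tumor: Klrd1 at 1.87 against 0.38 to 1.15 FPKM, Cd226 at 0.50 against 0.14 to 0.16, Klrc1 at 0.40 against 0.19 to 0.25, Klrc2 at 0.35 against 0 to 0.03, Klrb1c at 0.26 against 0.06 to 0.16 and Ncr1 at 0.13 against 0.07 to 0.11. Klrk1, Klre1 and Klrg1 were within the range of the other α-KG tumors. The 9 receptors summed to 4.70 FPKM there and to 1.49 to 2.87 FPKM in the others, and the 5 B cell markers to 33.8 against 4.50 to 9.83 FPKM. Per FPKM of Cd8a, the summed FPKM of the 9 receptors was 1.29 in this tumor and 2.66 to 4.86 in the other α-KG tumors. In the combined group, tumors 1 and 3 had ratios of 2.51 and 2.54, tumor 4 had 1.94 and tumor 2 had 1.42, where Cd8a was 10.04 FPKM but Klrg1 only 0.30. The ratio was 0.625 to 1.86 in vehicle and 1.78 to 3.28 in anti-PD1 tumors, so the groups overlapped throughout.

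The receptors were also close to each other. Among the 28 pairs of the 8 tested receptors, r within groups ran from 0.658 (Klrg1 with Cd226) to 0.988 (Klrk1 with Klrd1), and that of Ncr1 with Klrk1 was 0.961, against 0.799 with Cd8a. These values share their libraries and are a description. Of all tested genes, those most like Ncr1 over 16 tumors were Tbx21, which encodes the transcription factor T-bet of NK and effector T cells (r = 0.984), Dnase1l3 (0.983) and Atp10a (0.983), with Cd8a in place 155. For Klrd1 they were Sytl3 (0.993), Klrk1 (0.989) and Tspyl3 (0.988), with Cd8a in place 66. For Cd226 they were Podnl1 (0.976), Cd160 (0.974), a receptor of NK and CD8 T cells, and Cysltr2 (0.973), with Cd8a in place 40.

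Tyrobp sat with genes of myeloid cells. Those most like it were Fcer1g (r = 0.994), the Fc receptor gamma chain and another signalling adaptor, Pirb (0.993), an inhibitory receptor of myeloid and B cells, and Spi1 (0.990), the transcription factor PU.1, while Cd8a was in place 2320. Beside the rise of Tyrobp with α-KG, the 8 neutrophil markers summed to 1359 to 3596 FPKM in α-KG tumors while they summed to 26.7 to 43.1 in vehicle tumors, 29.3 to 120 with anti-PD1 and 41.2 to 161 with the combination. All 8 were higher in α-KG than in vehicle tumors (limma), where 8.4% of all genes were. The 12 macrophage and monocyte markers summed to 1070 to 1399 FPKM with α-KG and 140 to 638 in vehicle, with 9 of 12 higher (8.4% of all genes). They summed to 676 to 1169 with anti-PD1 (5 of 12 higher, 0.467% of all genes) and 984 to 2523 with both (12 of 12 higher, 34.9% of all genes). Their part in the rise of Tyrobp was not tested. With Csf1r, a receptor of monocytes and macrophages, in place of Cd8a as the covariate, Tyrobp was 0.97 higher in α-KG than in vehicle tumors (limma adjusted p = 0.0243). This reference gene was added after the values were seen. Its slope on Csf1r was 0.89 log2 units (adjusted p = 1.93e-06), and Klrc1, Klrk1 and Klrd1 also had called slopes on Csf1r.

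**Figure D5:**
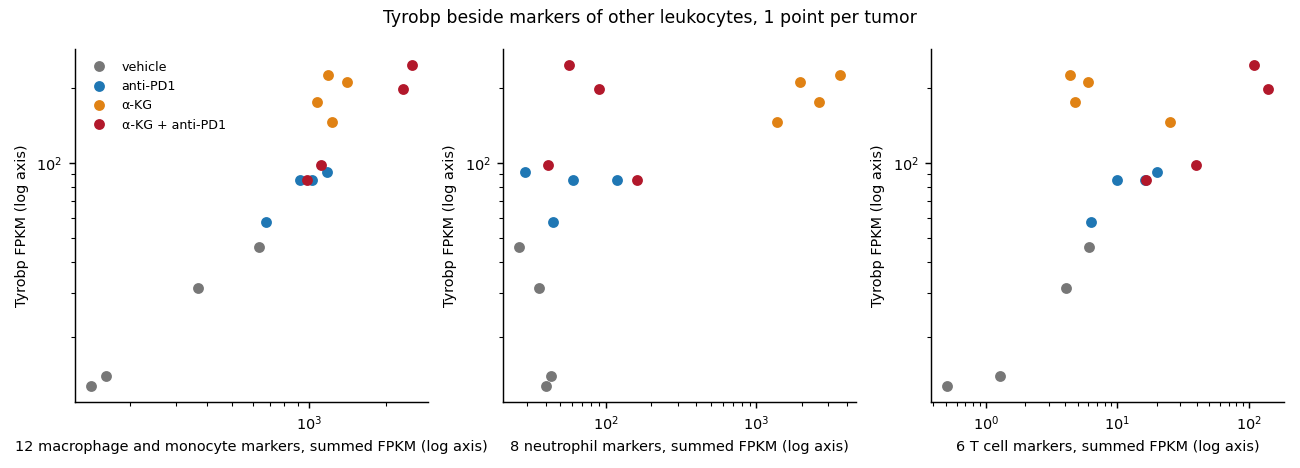
Tyrobp FPKM against the summed FPKM of macrophage and monocyte, neutrophil and T cell markers, 1 point per tumor on logarithmic axes. The α-KG tumors are set apart by their neutrophil markers (1359 to 3596 FPKM, against at most 161 elsewhere), and Tyrobp rises with the macrophage and monocyte markers in the other groups.

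Other genes of the NK receptor system were taken from fixed lists. Of 21 further lectins of the complex, 6 passed the filter, and all 6 were higher with α-KG + anti-PD1 than in vehicle (34.9% of all genes), with a median log2 difference of 1.39 against 0.15 for all genes. With α-KG alone 3 of the 6 were higher (8.4% of all genes): Clec12a, an inhibitory lectin of myeloid cells (1.53, adjusted p = 0.0328), Klra2 (2.17, adjusted p = 7e-05) and Klra17 (1.33, adjusted p = 0.000270), all by limma. Clec12a averaged 2.21 FPKM in vehicle tumors, 6.63 after α-KG and 20.7 after both treatments, whereas Klra2 was as high in α-KG (5.23) as in the combination (4.95). With anti-PD1 alone 0 of 6 were called, and 0.467% of all genes were higher. The Ly49 genes Klra7, Klra3 and Klra8 stayed under the filter and were not tested. Klra7 averaged 0.07 FPKM in vehicle tumors and 2.13 with both treatments, and Klra3 0.085 and 1.51. Klra8 was listed at 0 in all vehicle tumors and averaged 1.45 FPKM with both. Klrb1b averaged 0.19 FPKM in vehicle and 2.97 with both treatments.

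The list of NK lineage and effector genes holds many that CD8 T cells use too. Of 20, 17 were tested, 16 were higher with α-KG + anti-PD1 than in vehicle (34.9% of all genes) and 1, Ncam1, was not, with a median difference of 2.24. Ncam1 already averaged 3.08 FPKM in vehicle tumors, where Ncr1 averaged 0.01, and which cells gave it was not tested. Ccl5, a chemokine of activated T and NK cells, rose by 3.89 (adjusted p = 0.000564), Nkg7, of cytotoxic granules, by 4.74 (adjusted p = 0.000489), Gzmb, granzyme B, by 4.45 (adjusted p = 0.000532) and Il2rb, the shared receptor chain for IL-2 and IL-15, by 4.13 (adjusted p = 0.000476) in limma. With anti-PD1 alone 0 of 17 were called (0.467% of all genes were higher), and with α-KG alone 2 were higher and 1 lower, where 8.4% and 7.53% of all genes were. All 6 T cell markers were higher with the combination as well.

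Of 15 adaptors and signalling genes, 14 were higher with the combination than in vehicle (34.9% of all genes) and 8 with α-KG alone (8.4%), and 0 were called with anti-PD1, where 0.467% of all genes were higher. Fcer1g rose by 2.75 with α-KG (adjusted p = 0.000209) and by 2.51 with both (adjusted p = 0.000476), and Ptpn6, the phosphatase SHP-1 of inhibitory receptors, by 0.80 (adjusted p = 0.00928) and 1.21 (adjusted p = 0.000465) in limma. Fyn, a kinase used by NK and T cells, rose with both by 0.55 (adjusted p = 0.00146) and was at -0.06 with α-KG. Ptpn11, the phosphatase SHP-2, differed by 0.17 with both treatments (adjusted p = 0.0979) and was not called.

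Of 15 tested ligands and competing receptors, 8 were higher and 1 lower with α-KG + anti-PD1 than in vehicle, where 34.9% and 10.5% of all genes were. With α-KG alone 1 was higher and 1 lower, shares near the 8.4% and 7.53% of all genes. H2-T23, which encodes the Qa-1 ligand of CD94 with NKG2A, averaged 24.9 FPKM in vehicle tumors, 50.6 with anti-PD1, 44.5 with α-KG and 118 with both, and it rose by 2.14 with both (limma adjusted p = 0.000679). The classical MHC genes H2-D1 and H2-K1 rose by 2.50 (adjusted p = 0.00274) and 2.49 (adjusted p = 0.00241). Pvr, a ligand of Cd226, averaged 27.9 FPKM in vehicle and 29.7 with both, a difference of 0.07 (adjusted p = 0.671). The 7 melanocyte markers summed to between 7845 and 10572 FPKM in every tumor, and 0 of them rose and 2 fell with the combination.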

How the data were processed

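Poly(A) RNA of whole B16F10 tumors was sequenced on a DNBSEQ instrument, per the labels. The authors deposited 1 table of FPKM values for 16 tumors, and every column was used. The submitters' processing notes name HISAT, Bowtie2 and the build mm10, with no version or role, and the program, annotation and filters behind the FPKM values are not given in the sources used here. Depth is unknown. Each tumor was taken as a separate mouse's, because each mouse was injected at 1 site, and p-values measure the spread between tumors.

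Values were changed to log2(FPKM + 1), with a pseudocount of 1. The 12850 genes that reached 0.5 FPKM in 4 tumors or more were fitted with 1 mean per group over 16 tumors in limma 3.58.1 (eBayes with trend, R 4.3.3), also with log2 Cd8a as a covariate, and p was adjusted by Benjamini-Hochberg over all genes at a threshold of 0.05. Each fold change is on this scale and understates low genes. Correlations used 100000 two-sided permutations in Python 3.11.15 with numpy 2.4.6 and pandas 2.3.3, adjusted over 12849 genes. Both were tested on simulated data. Positions came from a GRCm38 annotation.

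Members and gene lists were chosen with earlier results of these data known. The members, Cd8a, up to 4 genes per list by mean FPKM, and the 3 genes most like Ncr1, Tyrobp, Klrd1 and Cd226 were named with values. The Ly49 genes, Ncam1, Csf1r and Ptprc were named after their values were seen.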

Additional observations from a re-analysis of the deposited data

Results flagged for a closer look

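In 43 sets of 4 tumors (members and Cd8a by group), the highest or lowest tumor was checked for a gap to its nearest neighbor above 0.829 of the range. For normally distributed values chance alone gives such a gap in about 1 in 20 sets. The rate for these FPKM, many of them near 0, was not computed. There were 5 genes with such a tumor. Ncr1 was 0.04 FPKM in vehicle tumor 2 and 0 in the others, a value too low to carry weight. Klre1 was 1.61 FPKM in anti-PD1 tumor 3 and 0.48 to 0.54 in the others. In α-KG tumor 2, Klrc2 was 0.35 FPKM against 0 to 0.03, Cd226 was 0.50 against 0.14 to 0.16 and Cd8a was 3.63 against 0.56 to 0.59.

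The effect of anti-PD1 on Tyrobp differed between tumors with and without α-KG by the interaction test, with a value of -2.15 (limma adjusted p = 0.0211).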

How the results depend on the processing

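The rise of the members with α-KG + anti-PD1 over vehicle and the rise of Tyrobp with α-KG kept their direction under every alternative run, and wherever such a member was tested its call held, except for Klrc2 when centred on tumor medians (adjusted p = 0.0589). Stricter filtering changed counts because fewer members were tested: at 1 FPKM in at least 4 tumors 5 members were called against vehicle, 4 against α-KG, 2 against anti-PD1, 4 for the slope on Cd8a and 1 against the change of Cd8a. The 5 calls against anti-PD1 became 3 with a pseudocount of 0.1, 2 without a filter, 2 after quantile normalization, 3 when centred on tumor medians and 0 with only these groups fitted. The 1 call for anti-PD1 against vehicle (Tyrobp) became 0 without a filter, when rescaled to the same sum, without the trend, and with only these groups fitted. The 6 correlations within groups became 3 after quantile normalization, 3 when centred and 3 without the farthest tumors. The slope count was 4 with Csf1r as reference, and the α-KG count against the change of Cd8a was 0 with a pseudocount of 0.1 and 0 with Cd8b1. The causes were not tested.

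Tumors that share a replicate number did not deviate together (r from -0.64 to 0.41 over 24 pairs, 9 above 0.1). With the number as a block, the anti-PD1 count against vehicle was 0 (Tyrobp adjusted p = 0.0935) and no other count of calls changed by over 1.5 times. Leaving out each tumor in turn, with the same genes tested, gave 9 to 9 calls against vehicle for the combination, 7 to 8 against α-KG, 0 to 8 against anti-PD1, 0 to 1 when anti-PD1 alone was compared with vehicle, 1 to 1 when α-KG was, 1 to 5 for the interaction, 3 to 9 for the slope, 8 to 9 for the correlation, 3 to 6 within groups (3 without anti-PD1 tumor 3 or combination tumor 3), 0 to 1 for anti-PD1 at a given Cd8a (1 without vehicle tumor 1), and 4 to 5 (combination) and 0 to 1 (α-KG) against the change of Cd8a. When the filter was applied again to the remaining 15 tumors, a form that was run first and replaced by the one above after its counts were seen, as few as 5 members were tested, and the ranges began at 5 for the combination against vehicle, 4 against α-KG, 4 for the correlation and 0 for the combination against the change of Cd8a, with the other lower ends as above. The near-zero value of Klrc1 for α-KG against vehicle turned to -0.025 after quantile normalization, -0.012 when centred, and -0.077 to 0.18 when a tumor was left out (-0.023 without α-KG tumor 2). The median change of all genes for the combination against vehicle was 0.15, and -0.11 after quantile normalization, -0.16 when centred and 0.34 when rescaled, and 9, 8 and 9 members were called higher under these. Centring also turned the split of all genes for the interaction from 1027 higher and 402 lower to 389 and 633, quantile normalization that for α-KG from 1080 and 968 to 1039 and 1644, and rescaling that for anti-PD1 from 60 and 36 to 15 and 14. Depth limits receptors under 1 FPKM most, since their precision is unknown.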
